A study of Mus musculus with 16 samples.

Results

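The 10 genes followed here are best known for the proteins the liver secretes into plasma, and were measured in the intestinal epithelium of young mice: Afp, Alb, Fga, Fgb, Fgg, Kng1, A2m, F10, C9 and Mbl2. They are 10 of the 24421 genes counted in each library. They were selected on values measured in these same libraries, and which comparison brought in which gene is not recorded. Their differences between regions and ages are therefore given below as descriptions, with no p-value. Where those past the limits used for all genes are named or counted, this is not read as a test. The one comparison of these genes that the choice did not use is that of females with males, which was tested. Epithelium was shaken loose with EDTA from a piece of jejunum and a piece of ileum of wild-type C57BL6/J mice, and its mRNA was sequenced. The mice were 4 at postnatal day 6 (P6), when pups suckle, and 4 at postnatal day 36 (P36), after weaning, with 2 females and 2 males at each age. Each mouse gave 1 library per region, so the 16 libraries form 4 groups of 4: P6 jejunum, P6 ileum, P36 jejunum and P36 ileum. A replicate number stands for the same mouse in both regions of an age, and replicates 1 and 2 are females. No gene was deleted and no agent was given in any group. Bulk RNA cannot tell fewer cells of a type apart from less RNA per cell, and this holds for every level below.

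Hepatocytes make most plasma proteins, and during fetal life the yolk sac makes part of the same set. Albumin and alpha-fetoprotein carry fatty acids and other small molecules. Fibrinogen, kininogen and factor X belong to clotting and to the contact system, alpha-2-macroglobulin traps proteases, and C9 and the mannose-binding lectin belong to complement. Alpha-fetoprotein is the classic example of a gene that is active before birth and is then silenced in the liver.

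The libraries held 12159237 to 25947276 counts, and 18959 genes had a count in at least 1 library. Levels are given as CPM, which are counts brought to 1 library size with trimmed mean of M-values factors, and, where different genes are compared, as RPKM, which also divides by exon length. The summed CPM of 9 epithelial markers was 4032 to 6554 at P6 and 10890 to 16400 at P36. This rise lay mainly in Krt8, Krt20 and Vil1. In jejunum and ileum, Krt20 averaged 103.7 and 44.5 CPM at P6 and 1912 and 1799 at P36. Epcam averaged 1289 and 1901 CPM at P6 and 1501 and 1728 at P36, and Cdh1 817 and 832, then 830 and 980. Krt18 and Lgals4 were lower on average at P36 in both regions. Of 16 hepatocyte genes, Cyp7a1, Tdo2, Slc10a1 and Cyp1a2 had 0 counts in all 8 P6 libraries, and Hsd17b13, a lipid droplet enzyme, made up 96.2% to 99.3% of the list's summed CPM there. Without Hsd17b13 the other 15 summed to 2.11 to 3.32 CPM in the P6 jejunum, 3.29 to 7.21 in the P6 ileum, 2.60 to 3.73 in the P36 jejunum and 17.4 to 31.7 in the P36 ileum. Ileal libraries averaged 0.570 CPM of Tat, tyrosine aminotransferase, at P6 but 24.7 at P36. Hal, histidine ammonia-lyase, averaged 4.44 CPM in ileal and 0.430 in jejunal libraries of P6 mice and 0.215 in ileal libraries of P36 mice, so that it was highest where Afp, Fga, Fgb and Kng1 were. The 13 markers left without Hsd17b13, Tat and Hal summed to 1.74 to 2.57 CPM in jejunal libraries and 0.474 to 0.839 CPM in ileal libraries of P6 mice. The part of hepatocyte RNA in the levels below was not tested. The 4 measured markers of ileal enterocytes summed to 4752 to 11570 CPM in the P36 ileum and 464 to 533 in the P36 jejunum, but to 200 to 506 in the P6 ileum and 603 to 653 in the P6 jejunum. At P6 this sum was carried by Slc51a and Slc51b, which were higher in the jejunum (520 and 109.7 CPM against 304 and 28.7), whereas Fabp6 and Slc10a2 were higher in the ileum (37.4 and 2.05 CPM against 0.409 and 0.0580), each with no overlap between the regions. Gata4, a factor of the proximal intestine, was higher in jejunal libraries at both ages (log2 difference 3.28 at P6 and 4.17 at P36, adjusted p = 0.00844 and 0.00372). One library stood apart: P6 ileum replicate 2 had summed CPM of 245 for fibroblast markers and 188 for smooth muscle markers, against 20.2 to 42.2 and 1.19 to 2.99 in the other P6 ileum libraries. Without it the P6 ileum mean came to 1039 CPM for Afp (956 with it), 37.4 for Fga (35.95), 6.99 for Kng1 (7.38), 5.69 for A2m (4.56), 2.12 for C9 (2.07) and 0.533 for Fgg (0.799), and the means of Fgb and F10 without it are given with their levels.

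Several of these genes sit beside one another in the genome, and coordinates here are those of the mm10 build used for the counts. Alb (chr5:90460889-90476603) lies 14.1 kb before Afp (chr5:90490714-90508907), and Afm, which encodes their relative afamin, starts 10.0 kb after Afp. Fgg (chr3:83007896-83015049), Fga (chr3:83026153-83033617) and Fgb (chr3:83042305-83049790) form 1 cluster, with Fgb on the opposite strand. Kng1 (chr16:23058300-23082078) is 29.2 kb from its relative Kng2. F10 (chr8:13037308-13056676) stands between F7, 1502 bases away, and Proz, 4231 bases away. A2m lies at chr6:121636173-121679238, C9 at chr15:6445333-6498476 and Mbl2 at chr19:30232957-30239682, each without a neighbour among the 10.

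RefSeq held a promoter for 8 of the 10 genes (build GRCm38.p6), all but Kng1 and A2m. The last 130 bases before the start of 4 of them are shown because they pair the neighbours that differed most in level, Afp and Alb, and those that were both highest in the P6 ileum, Fga and Fgb. Each is written from 5′ to 3′ on the strand of its gene and ends at the base before the start that RefSeq gives, which for Alb and Fgb is not the start of the counted gene given above.
Afp promoter, plus strand, chr5:90490584-90490713: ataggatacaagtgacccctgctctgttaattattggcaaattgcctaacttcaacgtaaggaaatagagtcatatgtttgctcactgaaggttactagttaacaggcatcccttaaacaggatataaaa
Alb promoter, plus strand, chr5:90460740-90460869: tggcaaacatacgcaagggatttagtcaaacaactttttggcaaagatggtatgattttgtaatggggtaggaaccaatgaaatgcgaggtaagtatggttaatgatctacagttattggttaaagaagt
Fga promoter, plus strand, chr3:83026023-83026152: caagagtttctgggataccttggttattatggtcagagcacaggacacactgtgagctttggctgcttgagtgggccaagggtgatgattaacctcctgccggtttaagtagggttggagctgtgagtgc
Fgb promoter, minus strand, chr3:83049864-83049993: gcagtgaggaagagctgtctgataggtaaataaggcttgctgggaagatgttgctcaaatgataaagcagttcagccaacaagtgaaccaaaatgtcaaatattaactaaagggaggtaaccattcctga

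Afp was by far the most abundant of the 10 in the P6 ileum and turned its regional order around between the ages. In the P6 ileum the 4 mice had 1736, 705, 817 and 564 CPM (956 ± 530.2, SD, n = 4). In the P6 jejunum of the same mice it stood at 15.7, 8.43, 16.9 and 9.29 CPM (12.6 ± 4.34), so the regions did not overlap and each ileum held 48.3 to 110.5 times the level of its own jejunum. The P6 ileal level, 458 RPKM on average, placed Afp at the 99.4th percentile of the 13429 genes that passed the filter on low counts. At P36 the ileum had 0.498, 1.02, 0.776 and 0.871 CPM, from 9 to 19 counts a library. The P36 jejunum had 7.71, 8.29, 9.92 and 10.3 CPM (9.05 ± 1.25), libraries that overlapped with those of the P6 jejunum. The fall with age thus lay almost wholly in the ileum, where summed counts gave 1213-fold less (95% interval 936 to 1601, counting error only), against 1.38-fold less in the jejunum. The fitted log2 difference of jejunum over ileum was -6.25 (SE 0.39) at P6 and 3.52 (SE 0.39) at P36.

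Alb, the most abundant plasma protein and the near neighbour of Afp, was all but absent. Its counts were 0 in all 4 P6 jejunum libraries, 3, 0, 1 and 2 in those of the P6 ileum, 4, 4, 1 and 0 at P36 in the jejunum, and 2, 0, 0 and 0 at P36 in the ileum. In P6 ileum replicate 1, where Afp had 35159 counts, Alb had 3. Alb did not pass the filter and was not fitted.

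**Figure D1:**
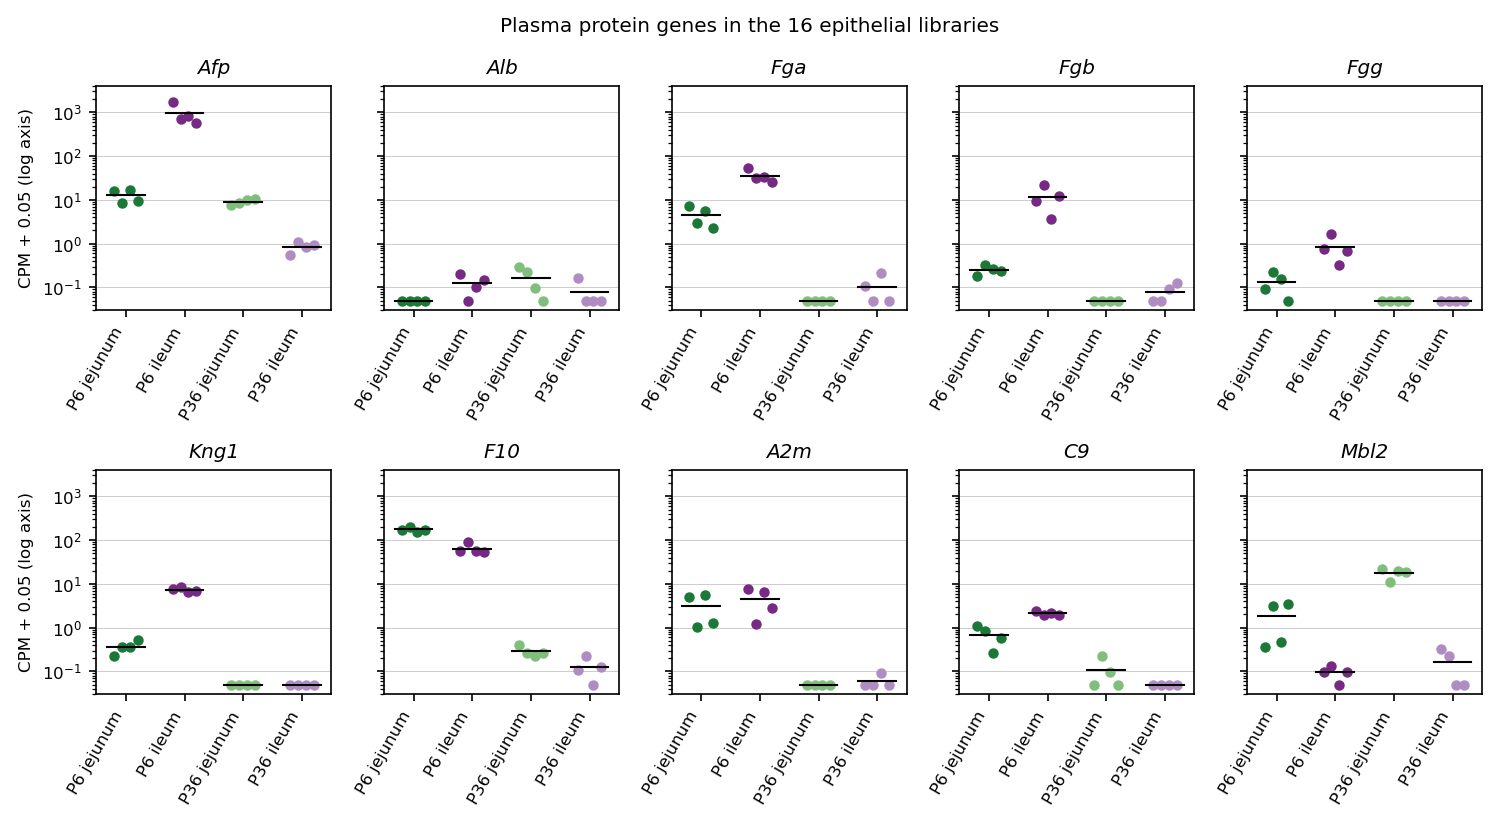
Level of each of the 10 genes in the 16 libraries, as CPM with 0.05 added on a log axis. Each point is 1 library, the bar is the mean of the 4 libraries of a group, and points on the lowest line at 0.05 are libraries with 0 counts. Afp, Fga, Fgb, Fgg, Kng1 and C9 were highest in the P6 ileum, F10 in the P6 jejunum and Mbl2 in the P36 jejunum.

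The afamin gene Afm, on the far side of Afp, is a member of the same family and stood in a list of other plasma proteins, where it could be tested. It had 25.9 to 39.1 CPM in the P6 jejunum and 30.8 to 61.1 in the P6 ileum, with overlapping libraries and a log2 difference of -0.67 (SE 0.33, adjusted p = 0.144 by edgeR's quasi-likelihood test). Per length, Afp stood at 17.8 times Afm in the P6 ileum but at 0.373 times Afm in the P6 jejunum. From P6 to P36 the log2 level of Afm fell by 4.26 in jejunal libraries (SE 0.39, adjusted p = 1.58e-07) and fell by 7.36 in ileal ones (SE 0.47, adjusted p = 3.69e-09). At P36 it was higher in the jejunum by 2.43 (SE 0.48, adjusted p = 0.00236), which came to 1.96 without P36 ileum replicate 3, under the fold minimum. Gc, the vitamin D carrier and the remaining family member measured, had 14 counts over the P6 jejunum libraries, 11 over the P6 ileum and 0 at P36.

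Fibrinogen is built from equal numbers of 3 chains, encoded by Fga (alpha), Fgb (beta) and Fgg (gamma). All 3 transcripts were found at P6, chiefly in the ileum, and were at or next to 0 at P36. Fga had 54.2, 31.6, 32.4 and 25.6 CPM in the P6 ileum and 7.02, 2.94, 5.46 and 2.20 CPM in the P6 jejunum. The 2 regions did not overlap, and the ileum of a mouse held 5.94 to 11.6 times its jejunum. At P36 Fga had 0 counts in each jejunum library and 5 counts over the ileum libraries, a level at least 119-fold lower than at P6 in the jejunum against the floor of 3 counts over the group.

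Fgb differed more between the regions. It had 9.58, 21.5, 3.53 and 12.2 CPM in the P6 ileum (11.7 ± 7.47, and 8.44 ± 4.45 without replicate 2) and 0.131, 0.268, 0.210 and 0.192 CPM in the P6 jejunum, where the counts were 3 to 6 a library. The fitted log2 difference of jejunum over ileum was -5.83 (SE 0.59) for Fgb and -3.03 (SE 0.42) for Fga. Fgg had 14, 37, 5 and 13 counts in the P6 ileum libraries, 1, 4, 2 and 0 in the P6 jejunum and 0 at P36, and it did not pass the filter.

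Per length, the chains were unequal and their balance differed between mice. In the P6 ileum Fga averaged 10.7 RPKM, Fgb 7.44 and Fgg 0.524. The share of Fgb in the summed RPKM of the 3 chains was 26.9% in replicate 1, 56.7% in replicate 2, 18.6% in replicate 3 and 49.1% in replicate 4, so that Fga led in replicates 1 and 3, Fgb led in replicate 2, and the 2 were level in replicate 4. Fgg made up 1.48% to 4.34% in all 4.

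**Figure D2:**
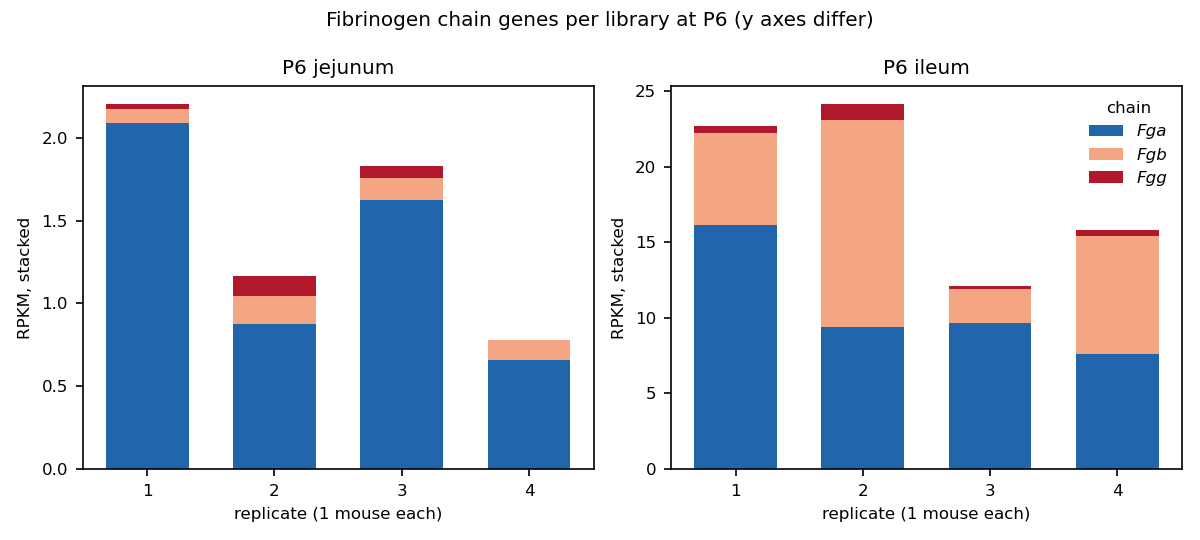
Stacked RPKM of the fibrinogen chain genes Fga, Fgb and Fgg in each P6 library, with the jejunum on the left, the ileum on the right and 1 mouse per bar. The y axes differ in scale. In the ileum Fgb ranged from 18.6% to 56.7% of the stack and Fgg did not exceed 4.34%, while in the jejunum Fga was the largest chain in every library.

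Kng1 encodes kininogen, the precursor that plasma kallikrein cuts to release bradykinin. It varied little between mice, with 7.60, 8.57, 6.40 and 6.96 CPM in the P6 ileum (7.38 ± 0.932). Jejunal libraries of that age had 0.175, 0.312, 0.315 and 0.479 CPM, or 4 to 10 counts, and all 8 P36 libraries had 0. The ileum of a P6 mouse held 14.5 to 43.6 times its jejunum, and the P6 ileum held at least 181 times the P36 ileum. Its relative Kng2, tested as a list gene, had the same order: 6.45 to 9.78 CPM in the P6 ileum, 0.525 to 1.03 in the P6 jejunum, and 3 counts over all 8 P36 libraries. Reads that mapped to both Kng1 and Kng2 were not counted. Kng2 was higher in the P6 ileum by a log2 difference of -3.31 for jejunum over ileum (SE 0.45, adjusted p = 6.32e-05) and fell by 7.79 in the ileum from P6 to P36 (SE 0.67, adjusted p = 9.22e-08).

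The enzymes that act on kininogen followed another course. Klkb1, plasma kallikrein, had 1 count over the P6 jejunum libraries, 1 over the P6 ileum, 180 over the P36 jejunum and 23 over the P36 ileum. It rose with age in the jejunum by 6.94 (SE 1.03, adjusted p = 3.73e-05), and its higher level in the P36 jejunum than ileum, 2.76 (SE 0.71, adjusted p = 0.0146), no longer passed with the mouse as a replicate block (3.04, adjusted p = 0.0561). Klk1, tissue kallikrein, rose from 1.56 to 65.5 CPM in the jejunum and from 8.13 to 160.9 CPM in the ileum (adjusted p = 1.16e-08 and 6.23e-08). Kininogen and kallikrein transcripts thus peaked at different ages.

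A2m, the broad protease inhibitor alpha-2-macroglobulin, marked the age and not the region. It had 4.93, 0.982, 5.41 and 1.25 CPM in the P6 jejunum and 7.70, 1.16, 6.62 and 2.75 CPM in the P6 ileum. These groups overlapped, although each of the 4 mice had more in its ileum, by 1.19 to 2.21 times. At P36 there was 1 count of A2m in 8 libraries, which puts the P36 jejunum at least 83.3-fold below the P6 jejunum. Its relative Pzp, the pregnancy zone protein gene, was regional: 2.55 to 25.3 CPM in the P6 ileum against 0.402 to 1.75 in the P6 jejunum (log2 difference -3.67, SE 0.71, adjusted p = 0.00125). Reads that mapped to both relatives were left out of the counts.

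F10 encodes factor X, the protease that turns prothrombin into thrombin once activated. Per length it was the most abundant of the 10 in the P6 jejunum, at 65.01 RPKM. Its levels there were 173, 199.7, 153 and 174 CPM (175 ± 19.1), against 56.3, 88.7, 56.9 and 54.1 CPM in P6 ileum libraries (64.0 ± 16.5, and 55.8 with an SD of 1.5 without replicate 2). The regions did not overlap, and the jejunum of a mouse held 2.25 to 3.22 times its ileum. At P36 the counts fell to 6, 5, 4 and 4 in the jejunum and 1, 3, 0 and 1 in the ileum. Summed counts put the P6 jejunum 747-fold above the P36 jejunum (95% interval 478 to 1241, counting error only). The fitted log2 change with age was -9.49 (SE 0.33) in the jejunum and -9.73 (SE 0.37) in the ileum.

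The genes on either side of F10 did not share its level. F7, factor VII, had 8 counts over the P6 jejunum and 4 over the P6 ileum, and per length F10 stood at 1234 and 929 times F7. Proz, protein Z, a cofactor in the inhibition of factor X, had 54.2 to 64.1 CPM in the P6 jejunum and 39.5 to 47.4 in the P6 ileum, and fell by 2.81 in the ileum (SE 0.27, adjusted p = 3.76e-07). In the jejunum Proz fell by 1.90, under the fold minimum. Vkorc1, which recycles the vitamin K that factor X needs, fell by 2.32 in jejunal libraries (SE 0.16, adjusted p = 9.96e-09) and fell by 3.24 in ileal ones (SE 0.17, adjusted p = 5.08e-10).

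Macrophages can make factor X, so their markers were set beside it. The 5 measured macrophage genes summed to 422 to 512 CPM in the P6 jejunum, 168 to 367 in the P6 ileum, and 4.28 to 13.4 at P36, in the same order as F10. Csf1r alone carried 97.1% to 98.2% of this sum in the P6 jejunum and 89.9% to 91.2% in the P6 ileum. The other 4 (Cd68, Adgre1, Mrc1 and Cx3cr1) summed to 7.40 to 14.2 CPM in the P6 jejunum, 16.1 to 33.5 in the P6 ileum, 3.44 to 8.89 in the P36 jejunum and 4.53 to 12.8 in the P36 ileum, an order of the regions at P6 opposite to that of F10. Most of this smaller sum at P6 was Cd68, which averaged 8.52 CPM in jejunal and 20.95 CPM in ileal libraries. Mrc1 averaged 1.85 and 2.085 CPM there, Adgre1 0.203 and 0.952, and Cx3cr1 0.2345 and 1.20. For human infant enterocytes the paper names CD68 among the enriched neonatal markers. Over the 4 P6 jejunum libraries F10 had 15001 counts, Csf1r 38967, Cd68 733, Mrc1 158, Cx3cr1 20 and Adgre1 17. The part of macrophages in the F10 level was not tested.

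C9 and Mbl2 stand at the end and the start of complement: C9 lines the pore that complement opens in a membrane, and the lectin encoded by Mbl2 recognises microbial sugars. C9 was low throughout, with 2.32, 1.94, 2.17 and 1.86 CPM in the P6 ileum (2.07 ± 0.210, from 38 to 47 counts) and 1.05, 0.803, 0.210 and 0.527 CPM in the P6 jejunum. The regions did not overlap. At P36 it had 5 counts in the jejunum, 4 of them in replicate 2, and 0 in the ileum.

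Of the other subunits of the membrane pore, C8b and C8g were in the opposite region. C8b had 3.05 to 17.9 CPM in the P6 jejunum and 0.108 to 0.539 in the P6 ileum (log2 difference 4.96, SE 0.73, adjusted p = 0.000128). C8g was higher in the P6 jejunum by 2.16 (SE 0.29, adjusted p = 5.27e-05), or by 1.87 with library totals in place of scaled ones, under the fold minimum. The remaining subunits were scarce at P6: C6 had 10 counts over the jejunum and 34 over the ileum, C7 had 0 and 4, C8a had 5 and 0, and Hc, which encodes C5, had 9 and 37.

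Mbl2 ran against the rest. It was highest in the P36 jejunum, with 21.9, 10.9, 19.98 and 19.1 CPM (18.0 ± 4.85, 16.8 RPKM, the 69.3rd percentile of tested genes), and had 0.305, 3.03, 0.420 and 3.399 CPM in the P6 jejunum. The ileum had 4 counts over the 4 libraries at P6 and 8 at P36, in which replicates 3 and 4 had 0. Summed counts put the P36 jejunum 161-fold above the P36 ileum (95% interval 81.4 to 373, counting error only) and 9.78-fold above the P6 jejunum. Mbl1, the gene of the other mouse mannose-binding lectin, had 0 counts in all 16 libraries.

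**Figure D3:**
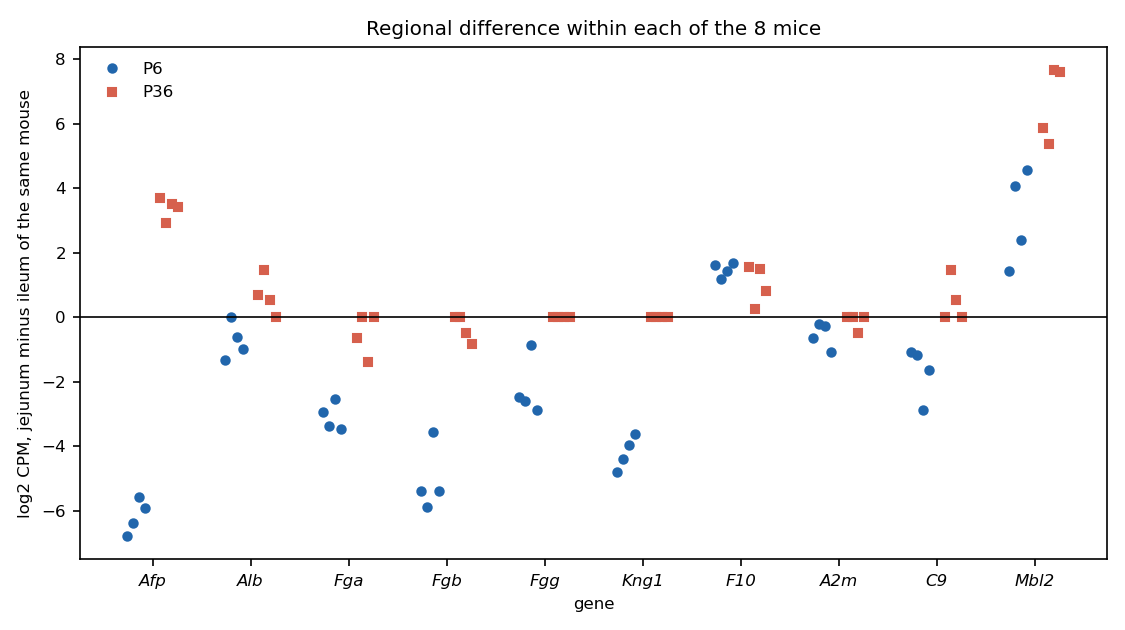
Difference of log2 CPM (2 counts added at the average library size) between the jejunum and the ileum of the same mouse, for the 4 P6 mice (circles) and the 4 P36 mice (squares). Points above 0 are mice with more in the jejunum, and points on 0 are mice with 0 counts in both regions. Afp was below 0 in all 4 P6 mice, from -6.78 to -5.59, and above 0 in all 4 P36 mice, from 2.91 to 3.71, while F10 and Mbl2 were above 0 in all 8.

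Of the 10 genes, 8 passed the filter on low counts, all but Alb and Fgg, and these could be set against all genes fitted. At P6, 4 of these 8 were past an adjusted p of 0.05 and a log2 difference of 2 toward the ileum (Afp, Fga, Fgb and Kng1), where 4.30% of the 13429 genes were, and 1 toward the jejunum (Mbl2), where 2.20% were. At P36, 2 were past these limits toward the jejunum (Afp and Mbl2), against 2.06% of all genes, and 0 toward the ileum, against 1.55%. From P6 to P36 in the jejunum, 6 were higher at P6 (Fga, Fgb, Kng1, A2m, F10 and C9), against 8.59% of all genes, and 1 at P36 (Mbl2), against 7.86%. In the ileum 7 were higher at P6, all but Mbl2, against 10.0% of all genes, and 0 at P36, against 6.40%. Since these comparisons took part in the choice of the genes, nothing is read from the counts. F10 at both ages (log2 differences of 1.45 and 1.69) and C9 at P6 (-1.66) had regional libraries that did not overlap but stayed inside the fold limit.

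Part of the spread between the P6 mice followed their names. The animal names of replicates 1 and 3 begin with L41800 and those of replicates 2 and 4 with L42150, each with 1 female and 1 male, and the labels do not say what the prefix marks. A2m was higher in both L41800 mice, by 4.64 times in the jejunum (5.17 against 1.11 CPM) and 3.66 times in the ileum (7.16 against 1.95 CPM), with no overlap. Afp and Fga were also higher in L41800 without overlap in both regions, by 2.01 and 1.52 times in the ileum. Mbl2 went the other way in the jejunum, where the L42150 mice had 8.87 times the level of the L41800 mice, and Fgb did so in the ileum, by 2.57 times. In 1 region alone, F10 was also higher in L42150 in the jejunum, by 1.145 times, without overlap. C9 was higher in L41800 in the ileum, by 1.18 times, without overlap. The share of all genes that split in 1 region was not counted, so nothing is read from these splits.

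Afp, Fga and A2m kept the 2 prefixes apart in both regions in 1 direction. The same held for 17.6% of the genes tested, so that 3 of the 8 fitted genes are to be read beside that share, and this split was looked at after the values had been seen. The regional differences stood within each prefix: for Afp the log2 difference of jejunum over ileum was -6.18 in L41800 and -6.14 in L42150, for Fgb -4.47 and -5.64, for F10 1.52 and 1.43, and for Mbl2 1.91 and 4.32. Pzp, the relative of A2m, had 25.3 and 19.0 CPM in the ileum of the L41800 mice and 2.93 and 2.55 CPM in that of the L42150 mice, the same split as A2m.

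**Figure D4:**
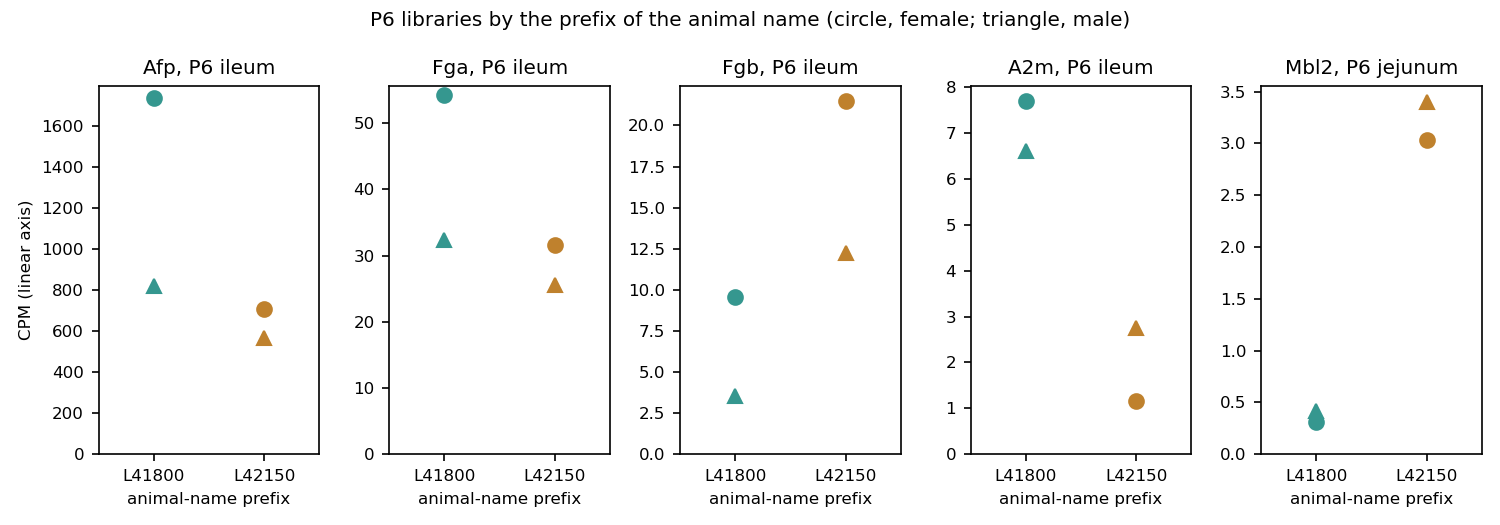
CPM on linear axes from 0 in P6 libraries, split by the prefix of the animal name, with 1 point per mouse (circle, female, and triangle, male). A2m in the ileum was 3.66 times higher in the L41800 mice, and Mbl2 in the jejunum was 8.87 times higher in the L42150 mice.

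Sex was the comparison that played no part in the choice of the genes. The counts of the 2 regions were summed for each mouse, and females were compared with males with age in the model (edgeR's quasi-likelihood test, 8 mice, 13709 genes tested). None of the 8 fitted genes passed: 0 had an adjusted p below 0.05, 0 had an unadjusted p below 0.05, and DESeq2 called 0. Over all genes, 5 (0.0365%) passed. The smallest p of the 8 was that of F10, with a log2 difference of female over male of 0.32 (SE 0.16, unadjusted p = 0.0711, adjusted p = 0.999923). Afp differed by 0.26 (SE 0.32), Fga by 0.38 (SE 0.41), Fgb by 0.78 (SE 0.61), Kng1 by 0.23 (SE 0.38), C9 by 0.59 (SE 0.57), A2m by -0.22 (SE 0.74) and Mbl2 by -0.25 (SE 0.59). For Fga, Fgb, A2m, C9 and Mbl2 a difference of 1 on the log2 scale lay within 2 SE of the estimate.

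The genes whose pattern was most like each of these were sought among all other tested genes, by the root mean square difference of centred log2 CPM over the 16 libraries, where 0 is an identical pattern. Kng1 was closest to Kng2 (0.57). Fgb and Kng1 were the closest pair among those of the 10 that passed the filter (0.58), which leaves out Alb and Fgg. F10 was closest to Csf1r (0.72) and to Ctsl, the lysosomal protease cathepsin L (0.72), which had 11460 CPM in the P6 jejunum, 5804 in the P6 ileum and 21.3 and 21.8 at P36. Fga was closest to Sycp3 (0.56) and Hapln1 (0.57), C9 to Cnnm1 (0.59) and to Gla, the lysosomal alpha-galactosidase (0.59), and A2m to L3hypdh (0.55).

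The distance to the nearest gene was largest for Afp and Mbl2. This measure also grows with the size of a gene's differences between libraries, so a larger value need not mean a different pattern. The nearest to Afp was the glutathione transferase gene Gsta2 at 1.37, with 55.4 CPM in the P6 ileum and 5.95 in the P6 jejunum, and the nearest to Mbl2 was the carbonic anhydrase gene Car2 at 1.16, with 23.4 CPM in P36 jejunal and 0.469 in P36 ileal libraries.

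Lists of genes from the same pathways, and of further proteins the liver secretes, were counted for comparison. The lists held 34 genes of coagulation and fibrinolysis, 37 of complement and 45 of other proteins the liver secretes. None of them was among the 10, and 57 of these 116 passed the filter. The first 2 lists also took in receptors, membrane proteins and enzymes that are not plasma proteins. Of these, Plaur and Cd55 were called toward the ileum at P6, and Vkorc1, Cd59a, Cd55 and Cd46 fell with age in the ileum. The counts below therefore describe the lists and not plasma protein genes alone. At P6, 8 of the 57 passed the test and fold limit toward the ileum and 3 toward the jejunum (4.30% and 2.20% of all genes did), with a median log2 difference of jejunum over ileum of -0.67 against -0.05 for all genes tested. At P36, 4 passed toward the jejunum and 3 toward the ileum (2.06% and 1.55% of all genes), with a median of 0.14 against -0.04. With age in the ileum, 18 fell and 5 rose, where 10.0% and 6.40% of all genes did (median -0.98 against -0.03). In the jejunum 13 fell and 14 rose, where 8.59% and 7.86% of all genes did (median -0.08 against -0.01).

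**Figure D5:**
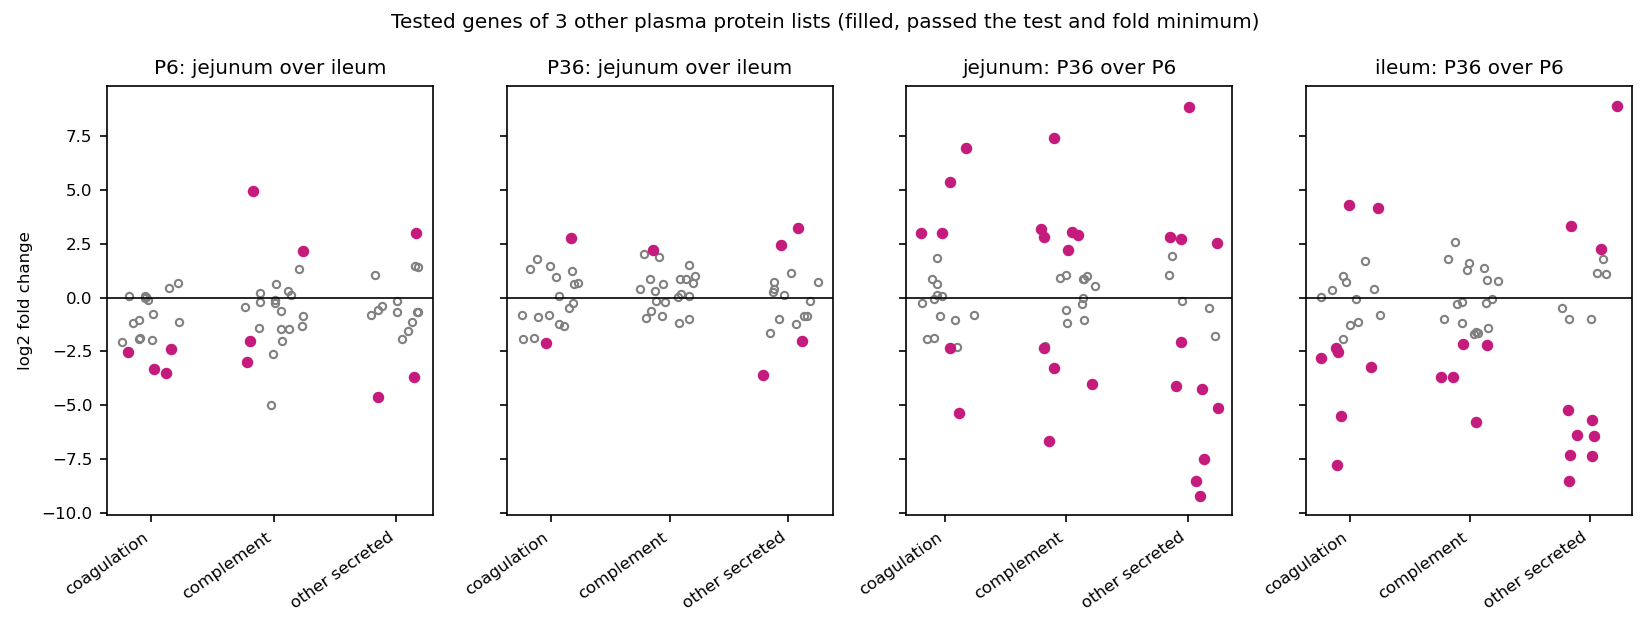
Log2 fold change of each tested gene of the lists of coagulation (19 genes), complement (22) and other secreted plasma proteins (16), in the 4 comparisons. Filled points passed an adjusted p of 0.05 and a log2 change of 2, and horizontal positions within a list have no meaning. In the ileum from P6 to P36, 18 of the 57 genes lie among the filled points below 0 and 5 among those above.

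By list, 4 of the 19 coagulation genes tested were higher in the P6 ileum (4.30% of all genes were) and 0 in the jejunum (2.20%): Kng2, Klk1, Plaur, the urokinase receptor (-3.52, SE 0.49), and Tfpi, the inhibitor of the tissue factor pathway (-2.54, SE 0.24). Tfpi, which blocks factor X, had 12.3 to 18.3 CPM in the P6 jejunum and 79.7 to 98.4 in the P6 ileum, the reverse of F10. Of the 22 complement genes, 2 passed in each direction at P6. From P6 to P36, 6 of them rose and 4 fell in the jejunum (7.86% and 8.59% of all genes), and 0 rose and 5 fell in the ileum (6.40% and 10.0%). In the same jejunal libraries fibroblast markers summed to 13.4 to 61.9 CPM at P36 and 5.27 to 17.7 at P6, and T cell markers to 2.43 to 22.2 and 0.788 to 2.58, ranges that overlapped between the ages but reached higher at P36. For fibroblasts only replicate 4 did so, and the other P36 jejunum libraries had 13.4 to 17.2 CPM. Of these markers Dcn averaged 1.04 CPM at P6 and 12.7 at P36, whereas Pdgfra averaged 1.44 and 0.0764. The part of fibroblasts and T cells in the complement counts was not tested. Of the 16 genes of other secreted proteins, 7 fell and 4 rose in the jejunum, and 7 fell and 3 rose in the ileum, beside the same shares of all genes. Among those that fell was Ttr, transthyretin, a carrier of thyroid hormone, from 289 to 1.57 CPM in the jejunum (log2 change -7.51, SE 0.52) and from 107.5 to 2.81 CPM in the ileum (-5.24, SE 0.47). Lect2, a hepatokine, averaged 263 CPM in P6 jejunal and 32.5 in P6 ileal libraries, and fell by 9.20 in the jejunum (SE 0.47). Lrg1, an acute phase glycoprotein, rose in the ileum by 8.93 (SE 0.68). Each change given here with its SE had an adjusted p of at most 0.00016 by edgeR.

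Whether the regional difference itself changed with age was tested for the lists by the interaction of region with age, which 8.69% of all genes passed. Of the 57, 9 did. The difference of jejunum over ileum was lower at P6 than at P36 for 8 of them and higher for 1. A lower difference at P6 need not mean a higher level in the P6 ileum. Ambp and Vkorc1, both among the 8, had P6 log2 differences of -0.38 and 0.06 (adjusted p = 0.521 and 0.816 by edgeR). Afm was also among the 8, with a regional difference lower at P6 than at P36 by 3.10 (interaction -3.10, SE 0.58, adjusted p = 0.00306).

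Factors that drive or repress liver-type genes were listed as well, 26 in number, of which 25 were tested. At P6, 3 passed toward the jejunum and 2 toward the ileum, where 2.20% and 4.30% of all genes did, with a median log2 difference of -0.06 against -0.05 for all genes. At P36, 5 and 1 did, against 2.06% and 1.55% of all genes, with a median of -0.11 against -0.04. With age 4 rose and 1 fell in the jejunum (7.86% and 8.59% of all genes), and 1 rose and 3 fell in the ileum (6.40% and 10.0%). The bZIP factor Hlf had the same change of regional order as Afp, at 3.09 CPM in the P6 ileum and 0.205 in the P6 jejunum but 0.166 in the P36 ileum and 2.53 in the P36 jejunum (interaction -7.78, SE 0.76, adjusted p = 1.05e-05). Onecut2 was higher in the jejunum at both ages, by 4.76 (SE 0.51) and 7.82 (SE 0.64), and Nr0b2, a repressor of bile acid synthesis, was higher in the P6 jejunum by 5.396 (SE 0.73).

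The factors known to repress Afp in the liver were listed by name: Zbtb20, Zhx2 and Zfhx3. None passed the test together with the fold limit in any of the 4 comparisons. Zbtb20 was scarce, at 0.523 CPM in the P6 jejunum, 1.68 in the P6 ileum, and 0.839 and 0.899 in the P36 jejunum and ileum, and was higher in the P6 ileum (log2 difference -1.68, SE 0.35, adjusted p = 0.00215). Zhx2 rose with age by 1.46 in jejunal (SE 0.21, adjusted p = 2.82e-05) and by 0.78 in ileal libraries (SE 0.21, adjusted p = 0.00492), and the difference between these changes did not pass (interaction -0.68, SE 0.30, adjusted p = 0.181). Zfhx3 stayed between 3.34 and 3.85 CPM on average in the 4 groups. The part of these factors in the level of Afp was not tested.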

How the data were processed

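Total RNA was made into stranded mRNA libraries and sequenced in pairs. Per the labels, the authors used Trimmomatic 0.38 for trimming, STAR for alignment to mm10 (2.5.3 in the submitters' processing notes, another version in the methods) and counted exons per gene with featureCounts 1.6.3 (reverse-stranded, reads mapping to several places left out). The deposited files hold these raw counts per gene, 1 file per library. Counts were fitted here with edgeR 4.0.16 (TMM, filterByExpr, quasi-likelihood test, 4 group means, R 4.3.3), p-values were adjusted by Benjamini and Hochberg over all genes tested, and a gene was called at an adjusted p of 0.05 and a log2 change of 2 (for sex and the interaction, at the adjusted p alone). DESeq2 1.42.0, other scalings and filters, sex, a mouse block and leaving out libraries were alternatives. The fits were tested on simulated data. Jejunum and ileum of a mouse deviated together from their group means (r from 0.157 to 0.391 over genes). For jejunum and ileum of different mice of an age, r ran from -0.367 to 0.232, so the ranges overlapped. The cause of the likeness within a mouse was not tested. The genes, lists and tests were chosen with earlier results of these data known. From each list and comparison, up to 4 called genes with the smallest adjusted p could be named, with the albumin family, kinin pathway, membrane pore genes and Afp repressors. Intervals are 95% and cover counting error only, and PCR copies were not marked by molecular identifiers.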

Additional observations from a re-analysis of the deposited data

Results flagged for a closer look

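Afp was lower in the jejunum in all 4 P6 mice and higher in all 4 P36 mice, with a regional log2 difference at P6 minus that at P36 of -9.76, and this difference was not tested because Afp was chosen from these values. Of 20 groups of libraries of these genes with at least 10 counts, 1 held a library far from the others, F10 in P6 ileum replicate 2 at 88.7 CPM, and chance alone gives about 1 in 20. That library also had the highest fibroblast, smooth muscle and macrophage marker sums of the P6 ileum (245, 188 and 367 CPM), and their part in the F10 value was not tested.

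The regional difference changed with age for 13 named list genes (edgeR interaction, P6 minus P36). It was negative for Hlf (-7.78, adjusted p = 1.05e-05), Ambp (-3.62, 0.00459), Afm (-3.10, 0.00306), Onecut2 (-3.06, 0.0243), Dbp (-3.04, 0.0105), Cd59a (-2.53, 0.0165), Plaur (-2.28, 0.0355), Hnf4g (-1.62, 0.00731), Cd55 (-1.17, 0.0429) and Vkorc1 (-0.92, 0.0181). It was positive for Nr0b2 (7.00, 0.0016), Ttr (2.27, 0.0266) and Nr1h4 (1.88, 7.2e-06). Plaur and Cd55 lost the call with the mouse as a replicate block (adjusted p = 0.0932 and 0.0564), and Ttr, Plaur, Cd55 and Onecut2 lost it when single libraries were left out.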

How the results depend on the processing

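Under the alternatives run, no fitted difference of the 8 genes that exceeded the spread between libraries turned direction. DESeq2 moved 8 of 32 by more than that spread, library totals 1, and leaving out a library 12 of 256, each where 1 of the groups compared had at most 27 counts. Without P36 ileum replicate 2, the log2 difference of F10 at P36 toward the jejunum was 2.52 instead of 1.69, past the fold limit. With the mouse as a replicate block 835 genes were called between regions at P6 and 513 at P36 (873 and 484 without), and the calls of the 8 genes were the same. Library totals moved the median of all genes at P6 from -0.05 to -0.33, the split of calls from 296 and 577 to 240 and 815 (22.7% instead of 33.9% toward the jejunum), and the list genes higher in the P6 ileum from 8 to 15. Without a fold limit, 3484 genes were called between regions at P6, 2163 at P36, 6927 with age in the jejunum and 7475 in the ileum (873, 484, 2209 and 2204 with it). The list genes were then 5 and 13 in the P6 jejunum and ileum (3 and 8), 9 and 7 at P36 (4 and 3), and 9 higher at P36 in the ileum (5). Sex gave 16 genes with DESeq2 and 8 over 16 libraries (5), and none of the 8 genes. With single libraries left out, the list genes ranged from 7 to 15 in the P6 ileum (13 without replicate 1 and 15 without replicate 3 of that group), 3 to 5 in the P6 jejunum (5 without P6 ileum replicate 2), 1 to 4 in the P36 ileum (1 without P36 jejunum replicate 2 or P36 ileum replicate 3), and 4 to 9 higher at P36 in the ileum (9 without P6 ileum replicate 2). The interaction ranged from 835 to 1912 genes (1912 without P6 ileum replicate 4, 1167 with all), and sex from 5 to 9 (9 without P6 mouse replicate 1). The cause of these moves was not tested. Alb, Fgg, C9 and all 8 genes but Afp and Mbl2 at P36 rested on so few counts that depth limits their values. The same holds for Mbl2 in the ileum (4 counts at P6 and 8 at P36) and for Fgb and Kng1 in the P6 jejunum (17 and 27 counts).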
